A study of Mus musculus with 18 samples.

Results

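Messenger RNA of the dual-specificity MAP kinase phosphatases was followed in mouse brown adipocytes in which lipolysis was switched on, blocked, or both. The 10 genes described here (Dusp1, Dusp2, Dusp4, Dusp5, Dusp6, Dusp7, Dusp8, Dusp10, Dusp14 and Dusp16) were taken by their symbols from the 20295 genes of the count table, as members of a family. The cells were BAT-LgT, a single wild-type line of brown preadipocytes immortalised with SV40 large T antigen, and all groups had passed through the same differentiation with dexamethasone, IBMX, T3 and insulin. On day 7 they received either no inhibitor or inhibitors of ATGL and HSL, the main triglyceride and diglyceride lipases of fat cells (ATGLi and HSLi, written Lipase Inh.) for 1 h, and then Vehicle (DMSO), 100 nM of the β-adrenergic agonist isoproterenol (ISO) or SR-3420, a ligand of ABHD5 that activates ATGL without the receptor, for 3 h. The dose of SR-3420 is 10 µM per the labels, the text of the study gives another, and which was used was not settled. This gave 6 groups of 3 samples, which are Vehicle, ISO and SR-3420 without inhibitors, and Lipase Inh. + ISO, Lipase Inh. + SR-3420 as well as Lipase Inh. + Vehicle with them.

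MAP kinases carry signals from receptors and stress sensors to transcription factors, and they are active only while a threonine and a tyrosine in their activation loop both hold phosphate. Dual-specificity phosphatases remove both phosphates and so end the signal, and since many of their genes are themselves switched on by MAP kinases or cAMP they are textbook examples of negative feedback. In brown fat, cAMP reaches the thermogenic genes in part through p38, one of these kinases. The inducible nuclear enzymes are DUSP1, DUSP2, DUSP4 and DUSP5, of which DUSP5 acts on ERK and DUSP1 also on p38 and JNK. DUSP6 and DUSP7 are cytoplasmic and act on ERK, DUSP8, DUSP10 and DUSP16 act on the stress kinases p38 and JNK, and DUSP14 is a small atypical enzyme without the kinase-binding domain of the others. Protein levels and kinase phosphorylation were not analysed here.

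Promoter sequences are shown for 3 members that rose together with ISO but parted when the lipases were blocked: Dusp5 kept its response, Dusp1 kept a part and Dusp8 none that could be called. RefSeq promoters of 300 bases (250 before and 50 after the start, build GRCm38.p6) were found for 9 of the 10 members, Dusp4 having no match. They were searched on both strands for the cAMP response element TGACGTCA (CRE), its core TGACG (which every full CRE also contains), the AP-1 site TGANTCA, the C/EBP-ATF element TGATGCAA and the CArG box of serum response factor. Capitals mark the CRE, its core and the CArG box in the lines below. Dusp1 lies at chr17:26508423-26508722 on the minus strand, Dusp8 at chr7:142095235-142095534 on the minus strand and Dusp5 at chr19:53528895-53529194 on the plus strand.
Dusp1: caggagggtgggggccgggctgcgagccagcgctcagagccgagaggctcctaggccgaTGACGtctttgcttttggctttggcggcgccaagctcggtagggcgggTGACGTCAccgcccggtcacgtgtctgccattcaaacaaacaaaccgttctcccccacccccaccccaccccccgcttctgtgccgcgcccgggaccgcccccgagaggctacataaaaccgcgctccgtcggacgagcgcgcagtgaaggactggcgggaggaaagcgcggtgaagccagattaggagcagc
Dusp8: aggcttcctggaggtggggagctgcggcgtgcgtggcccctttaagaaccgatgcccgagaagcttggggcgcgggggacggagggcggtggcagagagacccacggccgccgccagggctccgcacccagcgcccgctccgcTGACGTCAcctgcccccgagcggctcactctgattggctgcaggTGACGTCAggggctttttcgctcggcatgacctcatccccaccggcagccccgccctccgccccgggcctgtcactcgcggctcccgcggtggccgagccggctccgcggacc
Dusp5: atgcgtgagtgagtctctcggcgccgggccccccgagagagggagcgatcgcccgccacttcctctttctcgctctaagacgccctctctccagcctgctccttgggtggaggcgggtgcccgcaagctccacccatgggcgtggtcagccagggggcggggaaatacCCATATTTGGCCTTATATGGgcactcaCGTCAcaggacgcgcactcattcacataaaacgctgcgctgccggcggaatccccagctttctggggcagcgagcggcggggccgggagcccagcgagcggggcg

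A full CRE was present in 2 of the 9 promoters, against 1.79% of all 32851 promoters in the table. Dusp1 had 1, from -143 to -136 relative to the start, and Dusp8 had 2, from -107 to -100 and from -63 to -56, a number reached by 13 promoters in all (0.0396%). The core was found in 5 of the 9 promoters (Dusp1, Dusp2, Dusp5, Dusp8 and Dusp16), against 20.8% of all. Dusp5 held 2 adjoining CArG boxes, from -82 to -73 and from -72 to -63, where 1.63% of all promoters held any. No AP-1 site or C/EBP-ATF element was found in these windows, against 7.81% and 0.895% of all promoters. The GC content of the 9 promoters lay between 57.3% (Dusp6) and 78.7% (Dusp7), and the background of all promoters was not matched for it. These matches describe letters and not occupied sites.

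Total counts were between 10310447 and 21205032 in 17 libraries. The shallowest, replicate 2 of Lipase Inh. + SR-3420, had 4263755, and the gene Lars2 took 18.3% of them (at most 0.121% elsewhere), so results that rest on it are also given without it. Adipocyte markers were high in every library (summed CPM of 7 markers from 10400 to 16000). All 6 brown adipocyte markers were in the table, with 4 or 5 of them above 1 CPM in each group. Their sum was low in Vehicle (119 to 161 CPM) and Lipase Inh. + Vehicle (131 to 172 CPM), which overlapped, and highest with ISO (1530 to 1630 CPM). That list holds Ppargc1a, which rose by 3.83 ± 0.09 on the log2 scale with ISO, so the sum does not measure cell type content alone. The pan-leukocyte marker Ptprc was at 0 and endothelial markers summed to at most 0.631 CPM. Preadipocyte or fibroblast markers summed to between 147 and 252 CPM, the 4 macrophage markers in the table to between 5.41 and 15.4 CPM and muscle markers to between 8.52 and 12.8 CPM, with overlapping ranges between Vehicle and ISO for each of these lists. With inhibitors, the macrophage sum was 10.4 to 13.4 CPM after ISO and 5.41 to 6.11 CPM after SR-3420, and the preadipocyte sum was 147 to 187 CPM after ISO and 192 to 223 CPM after SR-3420. Muscle sums with inhibitors were 11.4 to 12.4 CPM after ISO and 8.65 to 10.7 CPM after SR-3420. The adipocyte sum was 12300 to 13400 CPM in Vehicle, 14700 to 16000 with ISO and 13500 to 14100 with SR-3420. In the presence of inhibitors it was 10400 to 11400 after Vehicle, 12200 to 12500 after ISO and 12200 to 13100 after SR-3420. Neither the ISO and SR-3420 ranges of the 3 minor lists with inhibitors overlapped, nor the adipocyte range of a stimulus with that of its Vehicle group. Their part in the differences between the groups was not tested. Values are given as CPM, read counts relative to the TMM-scaled library total, as mean ± SD with n = 3. Calls of change used edgeR's quasi-likelihood test with Benjamini-Hochberg adjustment over 12156 genes and a limit of 0.05 on the adjusted p, and log2 fold changes carry their SE.

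Before stimulation the members spanned a wide range of levels. Per kilobase of counted length, Dusp4 had the highest level in Vehicle at 37.2 ± 6.85 CPM per kb and lay above Dusp10 (19.5 ± 1.20) in every sample. Dusp10, Dusp1 (18.1 ± 2.26) and Dusp14 (15.4 ± 0.482) followed, with overlapping samples between neighbours. Dusp16 (9.61 ± 0.491), Dusp7 (9.25 ± 0.328) and Dusp5 (8.78 ± 0.464) likewise could not be ordered beyond their spread, whereas Dusp6 (6.12 ± 0.216) and Dusp8 (1.18 ± 0.134) stood below them in every sample. Dusp2, an enzyme best known from lymphocytes, had 0 to 4 counts per library in all 6 groups, close to the 3 counts taken here as the floor, and did not pass the filter on low counts. The tests therefore cover 9 of the 10 members, and no change of Dusp2 was detectable at this depth. With SR-3420 the order at the top changed, with Dusp1 at 218 ± 15.5 and Dusp4 at 182 ± 26.3 CPM per kb, which overlapped.

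**Figure D1:**
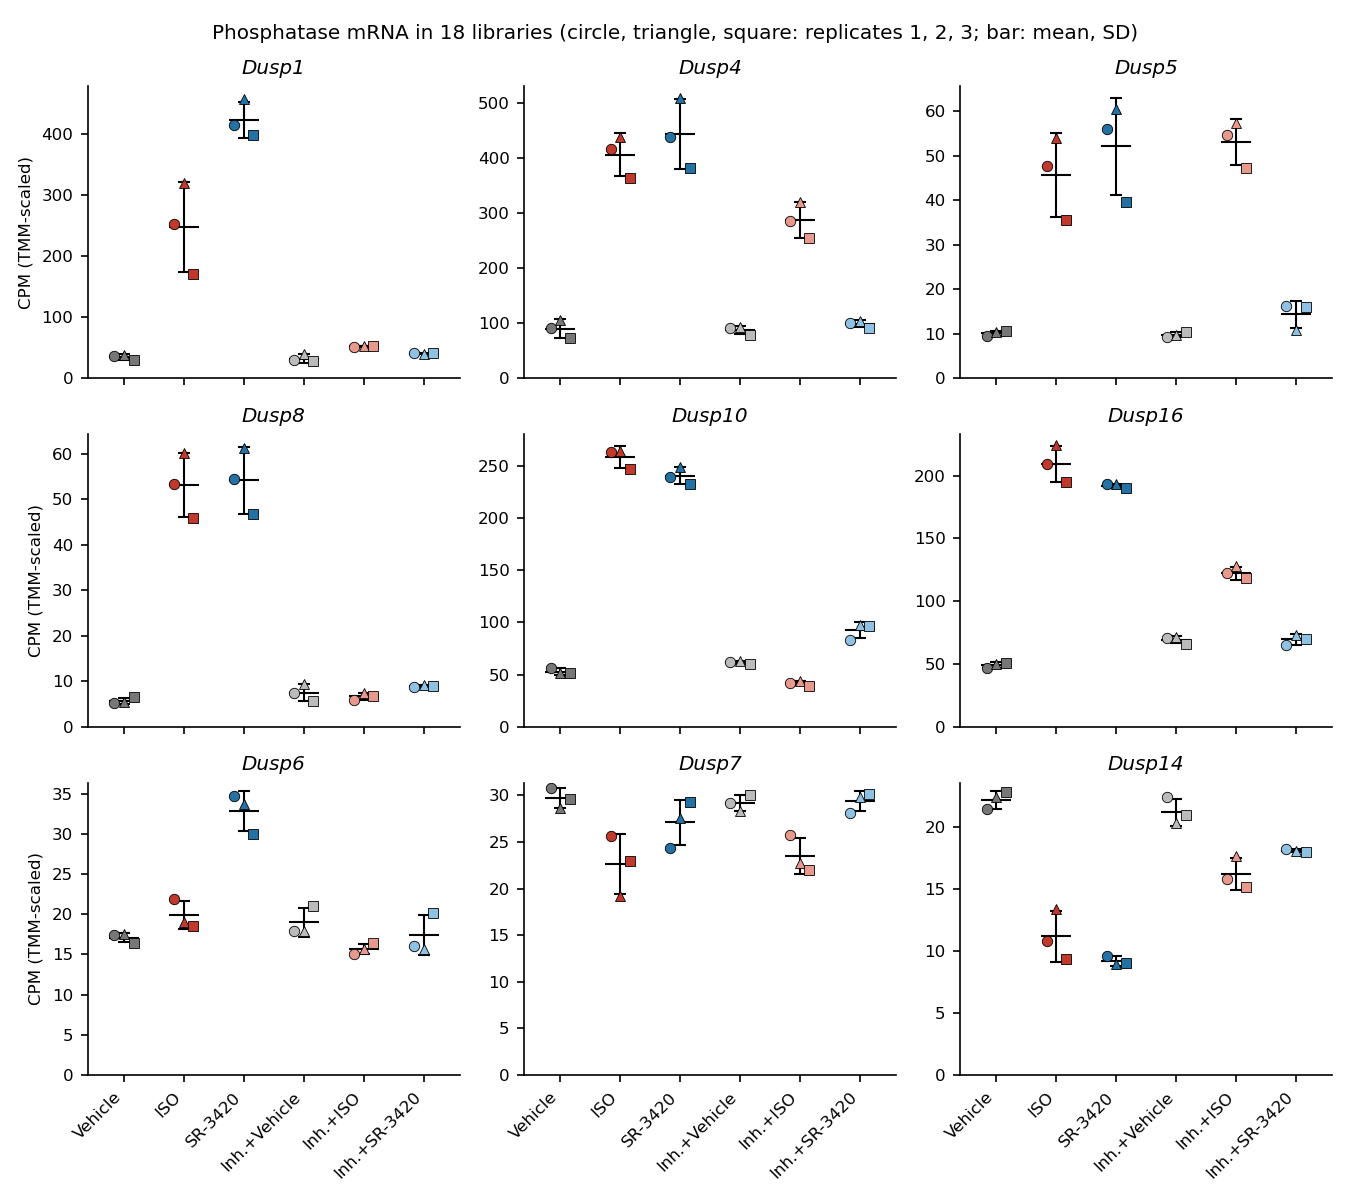
CPM of 9 phosphatase genes in each of the 18 libraries (linear axes from 0; circle, triangle and square are replicates 1, 2 and 3; bars are mean ± SD, n = 3). Dusp1, Dusp4, Dusp5, Dusp8, Dusp10 and Dusp16 stand high with ISO and SR-3420, while with inhibitors and ISO only Dusp4, Dusp5, Dusp16 and, to 52.2 CPM, Dusp1 stay above Lipase Inh. + Vehicle.

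ISO was compared with Vehicle for the β-adrenergic response. Of the 9 tested members 6 rose, all by at least 2-fold (Dusp1, Dusp4, Dusp5, Dusp8, Dusp10 and Dusp16), and 2 fell (Dusp7 and Dusp14). Over all genes tested 26.8% were called higher, 5.03% called higher by at least 2-fold and 25.0% called lower. The median log2 fold change of the 9 members was 2.17, against -0.02 for all genes. In RNA from whole cultures, a change in the share of responding cells and a change in RNA per cell cannot be told apart. Scaling by total counts alone in place of TMM moves the median gene by -0.31 with ISO and -0.16 with SR-3420, and lowers the share of calls that are higher from 51.7% to 19.9% with ISO and from 50.6% to 30.8% with SR-3420. The calls of higher and lower members with ISO were 6 and 2 on that scale too. In the other comparisons that share fell from 53.2% to 42.0% for inhibitors alone, from 51.0% to 27.8% and from 68.8% to 33.1% for ISO and SR-3420 with inhibitors, from 53.1% to 20.3% for ISO against SR-3420 and from 50.3% to 37.0% for both stimuli with inhibitors, and it rose from 47.3% to 58.6% for the ISO interaction and from 45.9% to 55.8% for the SR-3420 interaction. No called member changed its direction on that scale in any of the 9 comparisons.

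Among the nuclear enzymes, Dusp1 (RefSeq NM_013642, mm9 chromosome 17, 26642536 to 26645417, minus strand) measured 37.3, 38 and 30.1 CPM in the 3 Vehicle libraries and 253, 319 and 171 CPM with ISO. The groups did not overlap, but the ISO libraries differed among themselves by more than those of any other member. The log2 fold change was 2.82 ± 0.16 (adjusted p = 4.44e-12, edgeR). Dusp4 (chromosome 8, 35870664 to 35882948, plus strand), which dephosphorylates ERK and JNK in the nucleus, measured 91.9, 106 and 73.0 CPM in Vehicle and 416, 439 and 364 CPM with ISO. This was a rise by 2.17 ± 0.12 on the log2 scale (adjusted p = 3.76e-12, edgeR). Dusp5 (chromosome 19, 53603808 to 53615812, plus strand) measured 9.54, 10.3 and 10.6 CPM in Vehicle and 47.6, 54 and 35.5 CPM with ISO, a log2 fold change of 2.18 ± 0.17 (adjusted p = 3.98e-10, edgeR). Every ISO library stood above every Vehicle library for these 3 genes. How many of all genes separate in this way was not counted, here or in the comparisons below.

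The p38 and JNK phosphatases rose as a trio. Dusp8 (chromosome 7, 149265392 to 149281189, minus strand) had the largest fold change of all members with ISO, from 5.25, 5.41 and 6.44 CPM to 53.5, 60.2 and 46.0 CPM, or 3.23 ± 0.15 on the log2 scale (adjusted p = 2.57e-13, edgeR). It was the least abundant tested member in Vehicle, and its rise began from 70 to 83 counts per library. Dusp10 (chromosome 1, 185858340 to 185899515, plus strand) measured 56.7, 51.2 and 51.0 CPM in Vehicle and 264, 265 and 247 CPM with ISO. Its log2 fold change of 2.29 ± 0.07 had the smallest adjusted p of the members (1.88e-16, edgeR), the 3 libraries of each group lying close together. Dusp16 (chromosome 6, 134665486 to 134742646, minus strand), an enzyme that shuttles between nucleus and cytoplasm, went from 46.3, 50.2 and 50.9 CPM to 209, 224 and 195 CPM, a change of 2.09 ± 0.07 (adjusted p = 4.36e-16, edgeR). In the ISO group replicate 3 was the lowest library for 6 of these 6 induced members, and in the SR-3420 group again for 6 of 6. The same was not counted over all genes, and these members vary together, so it cannot be read as particular to them. The ISO calls of the 6 genes were kept with any single library left out.

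The cytoplasmic ERK phosphatases and the atypical enzyme behaved otherwise. Dusp6 (chromosome 10, 98725865 to 98730123, plus strand), a common readout of ERK activity, measured 17.4, 17.5 and 16.4 CPM in Vehicle and 21.9, 19.1 and 18.6 CPM with ISO. The samples did not overlap, yet the difference of 0.22 ± 0.11 (95% interval from -0.01 to 0.45) was not called (adjusted p = 0.103, edgeR). Dusp7 (chromosome 9, 106270963 to 106278054, plus strand) measured 30.8, 28.7 and 29.6 CPM in Vehicle and 25.6, 19.2 and 23 CPM with ISO, and fell by 0.39 on the log2 scale (SE 0.10, adjusted p = 0.00269, edgeR). Dusp14 (chromosome 11, 83861547 to 83881859, minus strand) measured 21.5, 22.4 and 22.8 CPM in Vehicle and 10.8, 13.4 and 9.35 CPM with ISO, and its level fell by 0.98 on the log2 scale (SE 0.11, adjusted p = 2.07e-07, edgeR).

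SR-3420 was used to ask what lipolysis does without receptor stimulation. The same 6 members that ISO raised also rose with SR-3420 by at least 2-fold, and with Dusp6 the number that rose was 7, while Dusp14 fell. The share of all genes called higher was 26.0% (3.97% by at least 2-fold), and 25.4% were called lower. ISO and SR-3420 share the Vehicle libraries, so the values are set side by side rather than correlated. Dusp1 reached 414, 457 and 399 CPM, 3.59 ± 0.16 above Vehicle on the log2 scale (adjusted p = 2.38e-13, edgeR). Dusp8 reached 54.4, 61.4 and 46.8 CPM (3.25 ± 0.15, adjusted p = 4.03e-13, edgeR), close to its ISO values. Dusp4 measured 438, 509 and 382 CPM and Dusp5 56.1, 60.5 and 39.7 CPM, log2 fold changes of 2.29 ± 0.12 and 2.36 ± 0.16. Dusp10 measured 240, 249 and 233 CPM and Dusp16 193, 193 and 190 CPM, log2 fold changes of 2.18 ± 0.07 and 1.97 ± 0.07. All of these libraries stood above every Vehicle library, and the adjusted p-values of the 4 genes lay between 1.18e-15 and 1.67e-10 (edgeR). Dusp6 measured 34.8, 33.8 and 30.0 CPM, all above every Vehicle library, a log2 fold change of 0.94 ± 0.11 (adjusted p = 2.33e-07, edgeR). Dusp14 fell by 1.27 on the log2 scale (SE 0.11, adjusted p = 6.32e-09, edgeR), to between 8.92 and 9.63 CPM. For Dusp7 the difference was -0.13 ± 0.10 (95% interval from -0.34 to 0.07) and was not called, though it was with total counts alone (-0.29, adjusted p = 0.0304, edgeR).

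Compared directly, 2 of the 9 tested members were lower with ISO than with SR-3420 and 0 were higher, against 13.9% and 15.8% of all genes. Dusp1 was lower with ISO by a log2 difference of -0.77 ± 0.14 (adjusted p = 0.000376, edgeR), and the highest ISO library (319 CPM) lay below the lowest SR-3420 library (399 CPM). Dusp6 was lower by -0.72 ± 0.11 (adjusted p = 2.76e-05, edgeR), again with no overlap. The 95% intervals of the ISO to SR-3420 difference were from -0.36 to 0.11 for Dusp4, from -0.48 to 0.12 for Dusp5, from -0.28 to 0.24 for Dusp8, from -0.03 to 0.24 for Dusp10 and from -0.01 to 0.26 for Dusp16, so differences of up to about those bounds remain possible. Dusp7 (-0.26 ± 0.10, adjusted p = 0.0582, edgeR) became called with total counts alone (-0.41, adjusted p = 0.00844), without ISO replicate 1 (-0.37, adjusted p = 0.0203) and without SR-3420 replicate 1 (-0.33, adjusted p = 0.0347). Dusp14 (0.29 ± 0.12, adjusted p = 0.0735, edgeR) became called without ISO replicate 3 (0.39, adjusted p = 0.0227).

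Lipase inhibitors alone left 8 of the 9 tested members uncalled. Dusp16 rose from 49.1 ± 2.51 to 69.3 ± 3.02 CPM, with 70.4, 71.7 and 65.9 CPM all above the Vehicle libraries, a log2 fold change of 0.50 ± 0.07 (adjusted p = 0.000293, edgeR). This call stands against a background of 0.485% of all genes higher and 0.428% lower. Dusp8 (0.38 ± 0.18, adjusted p = 0.426, edgeR) and Dusp10 (0.22 ± 0.07, adjusted p = 0.201, edgeR) were not called. For the other 6 members the 95% intervals lay between -0.48 and 0.38 on the log2 scale.

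With the lipases blocked, the response to ISO split the induced members. In Lipase Inh. + ISO against Lipase Inh. + Vehicle 4 members were higher (Dusp1, Dusp4, Dusp5 and Dusp16) and 4 lower (Dusp6, Dusp7, Dusp10 and Dusp14), with 29.4% of all genes higher and 28.3% lower. Of the 4 that rose, Dusp4 and Dusp5 did so by at least 2-fold, as 5.43% of all genes did.

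Dusp5 kept its whole response. It measured 9.33, 9.64 and 10.5 CPM in Lipase Inh. + Vehicle and 54.7, 57.4 and 47.3 CPM in Lipase Inh. + ISO, and the latter range overlapped that of ISO without inhibitors. The log2 fold change with inhibitors was 2.43 ± 0.16 (adjusted p = 3.85e-11, edgeR), and the interaction, the response with inhibitors minus the response without, was 0.25 ± 0.23 (95% interval from -0.24 to 0.73, adjusted p = 0.459, edgeR). The ratio of both log2 fold changes was 111%. Dusp4 rose to 285, 320 and 255 CPM from 90.9, 92.6 and 79.3 CPM, a log2 fold change of 1.71 ± 0.12, or 79.0% of that without inhibitors. Its highest library with inhibitors (320 CPM) lay below its lowest without (364 CPM). The interaction of -0.46 ± 0.17 was called at an adjusted p of 0.0426 (edgeR). This call was lost with total counts alone (-0.37, adjusted p = 0.112) and with all libraries thinned to the smallest total (-0.43, adjusted p = 0.0841). It was also lost in 10 of the 18 fits that left out a library. These were the fits without Vehicle replicate 1 or 3, ISO replicate 1 or 2, SR-3420 replicate 1, Lipase Inh. + Vehicle replicate 1 or 2, Lipase Inh. + ISO replicate 1 or 3, and Lipase Inh. + SR-3420 replicate 1, the values of all 18 running from -0.58 to -0.32 and the adjusted p from 0.0123 to 0.125.

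Of the p38 and JNK phosphatases, Dusp8 and Dusp10 kept no rise that could be called, and Dusp16 kept a part. Dusp8 measured 7.29, 9.48 and 5.72 CPM in Lipase Inh. + Vehicle and 5.76, 7.32 and 6.79 CPM in Lipase Inh. + ISO, ranges that overlapped. The log2 fold change was -0.15 ± 0.17 (95% interval from -0.51 to 0.21, adjusted p = 0.473, edgeR), and the interaction was -3.39 ± 0.23 (adjusted p = 3.67e-10, edgeR). Dusp10 went the other way from its response without inhibitors. It measured 62.3, 62.9 and 59.9 CPM in Lipase Inh. + Vehicle and 42.3, 43.8 and 39.3 CPM in Lipase Inh. + ISO, where it fell by 0.57 on the log2 scale (SE 0.07, adjusted p = 8.57e-07, edgeR). All 3 Lipase Inh. + ISO libraries lay below the lowest Vehicle library (51.0 CPM), and the interaction was -2.85 ± 0.10 (adjusted p = 1.82e-14, edgeR). Dusp16 still rose, from 70.4, 71.7 and 65.9 to 122, 128 and 118 CPM (0.82 ± 0.07, adjusted p = 8.39e-10, edgeR), 39.2% of the log2 response without inhibitors. Its interaction was -1.27 ± 0.10 (adjusted p = 1.29e-09, edgeR). Inhibitors alone had raised Dusp16 by 0.50 ± 0.07, and both the share and the interaction are relative to that higher start.

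Dusp1, like Dusp16, stood between the retained and the lost responses, and kept a smaller share than Dusp16. It measured 29.7, 39.9 and 27.6 CPM in Lipase Inh. + Vehicle and 51.1, 52.1 and 53.3 CPM in Lipase Inh. + ISO, a rise of 0.70 ± 0.16 (adjusted p = 0.000931, edgeR) that was 24.8% of the log2 response without inhibitors. The interaction was -2.12 ± 0.23 (adjusted p = 2.44e-07, edgeR). The study placed Dusp1 in its own list of unfolded protein response markers. The 95% intervals of the interactions of Dusp5 (-0.24 to 0.73), Dusp1 (-2.59 to -1.65) and Dusp8 (-3.87 to -2.90) did not overlap. These 3 genes were picked because their responses parted, so this describes them and is no test. The interval of Dusp10 (-3.06 to -2.64) overlapped that of Dusp8. Differences between genes were not tested.

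**Figure D2:**
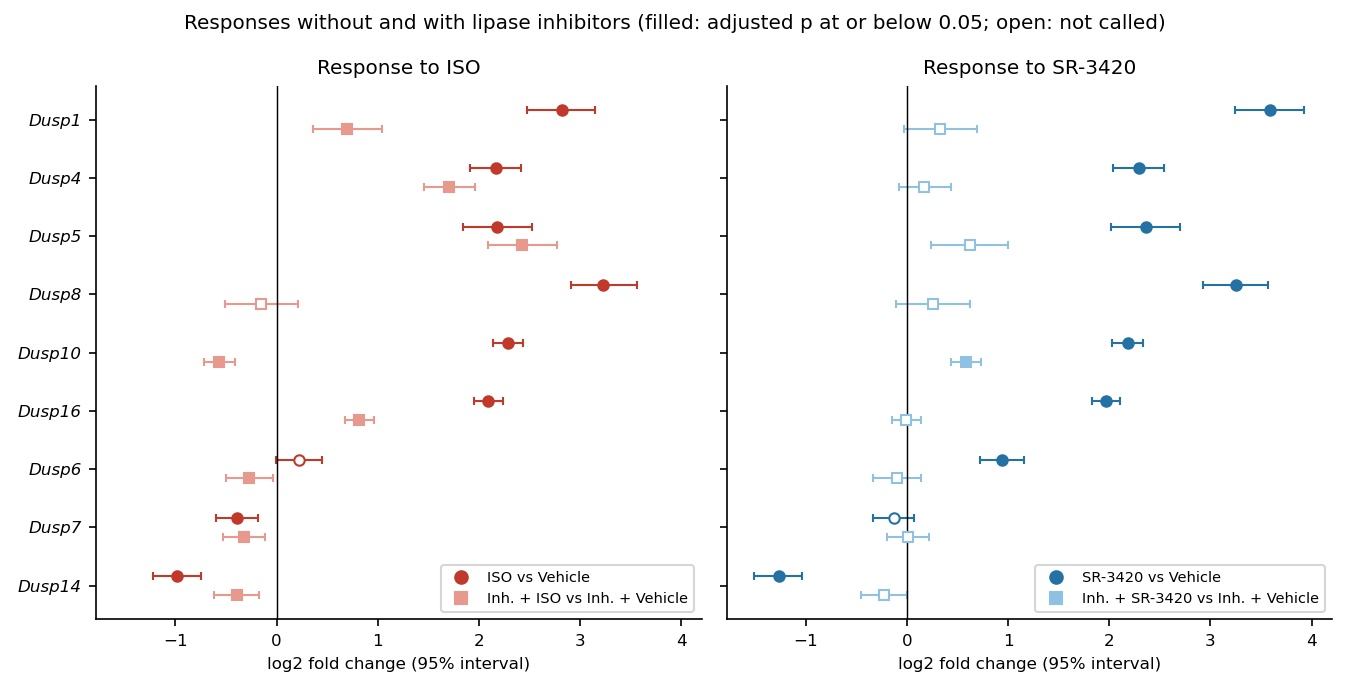
Log2 fold changes with 95% intervals for ISO (left) and SR-3420 (right), without inhibitors (circles, against Vehicle) and with inhibitors (squares, against Lipase Inh. + Vehicle), with filled symbols for adjusted p at or below 0.05. The ISO squares range from 2.43 for Dusp5 to -0.57 for Dusp10, whereas the SR-3420 squares all lie at or below 0.62.

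Members that fell or hardly moved with ISO also differed. Dusp14 was 21.2 ± 1.08 CPM in Lipase Inh. + Vehicle and 16.2 ± 1.29 CPM in Lipase Inh. + ISO, a fall by 0.39 on the log2 scale (SE 0.11, adjusted p = 0.00347, edgeR), and its interaction of 0.59 ± 0.16 (adjusted p = 0.00583, edgeR) was the only one above 0 to be called, so that its fall was smaller with inhibitors. After all libraries were thinned to the smallest total this interaction was 0.29 and no longer called (adjusted p = 0.374, edgeR). Dusp7 fell by 0.32 on the log2 scale (SE 0.10, adjusted p = 0.00986, edgeR), a call lost without Lipase Inh. + ISO replicate 3 (-0.26, adjusted p = 0.0568) and after thinning (-0.33, adjusted p = 0.0519). Its interaction of 0.07 ± 0.14 (95% interval from -0.22 to 0.37) was not called. Dusp6 was lower by -0.27 ± 0.11 (adjusted p = 0.0408, edgeR), a call lost without Lipase Inh. + ISO replicate 1, 2 or 3 (adjusted p from 0.0556 to 0.116) and without Lipase Inh. + Vehicle replicate 3 (-0.18, adjusted p = 0.221). It was also lost with DESeq2 (-0.27, adjusted p = 0.052), with no filter on low counts (-0.26, adjusted p = 0.0816) and after thinning (-0.22, adjusted p = 0.308). The Dusp6 interaction of -0.49 ± 0.16 (adjusted p = 0.0202, edgeR) was lost without ISO replicate 1 (-0.41, adjusted p = 0.0736) and without Lipase Inh. + Vehicle replicate 3 (-0.40, adjusted p = 0.0742). Total counts alone (-0.41, adjusted p = 0.0927) and thinning (-0.33, adjusted p = 0.336) also removed it. In all, the ISO interaction was called below 0 for 6 members and above 0 for 1, against 16.6% and 14.9% of all genes.

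Little of the response to SR-3420 remained for most members when the lipases were blocked. In Lipase Inh. + SR-3420 against Lipase Inh. + Vehicle 1 member was higher and 0 were lower, against 2.99% and 1.36% of all genes. Dusp10 measured 83.6, 97.5 and 96.8 CPM, above every Lipase Inh. + Vehicle library, and its log2 fold change of 0.58 ± 0.07 (adjusted p = 3.06e-05, edgeR) was 26.6% of that without inhibitors. Without the shallow library replicate 2 it was 0.55 (adjusted p = 0.000249, edgeR). Dusp5 measured 16.2, 10.9 and 16 CPM, the low value being that of the shallow library with 41 counts. Its log2 fold change was 26.1% of that without inhibitors. Its difference of 0.62 ± 0.18 was not called (adjusted p = 0.0611, edgeR), but it was called without that library (0.71, adjusted p = 0.0388), with SR-3420 replicate 2 or 3 or ISO replicate 2 or 3 left out (0.62 each, adjusted p from 0.0275 to 0.0496), and with DESeq2 (0.60, adjusted p = 0.0235). Dusp1 measured 41, 39.4 and 40.6 CPM and Dusp4 101, 104 and 92 CPM. Dusp8 measured 8.65, 9.06 and 8.84 CPM and Dusp16 65.1, 73.3 and 69.8 CPM. All of these overlapped the Lipase Inh. + Vehicle libraries of the same gene, and the log2 differences of Dusp1 (0.33 ± 0.17), Dusp4 (0.17 ± 0.12), Dusp8 (0.26 ± 0.18) and Dusp16 (-0.01 ± 0.07) were not called, with adjusted p-values between 0.368 and 0.984 (edgeR). The upper 95% bounds for these genes, 0.69, 0.43, 0.62 and 0.14 on the log2 scale, lay below the lower bounds of their responses without inhibitors.

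The SR-3420 interaction was called below 0 for 7 members and above 0 for 1, against 14.8% and 12.5% of all genes. Dusp1 had the largest (-3.26 ± 0.23), followed by Dusp8 (-3.00 ± 0.24), Dusp4 (-2.12 ± 0.17), Dusp16 (-1.97 ± 0.10), Dusp5 (-1.74 ± 0.25), Dusp10 (-1.60 ± 0.10) and Dusp6 (-1.04 ± 0.16), with adjusted p-values between 9.85e-12 and 3.83e-05 (edgeR). Dusp14 had an interaction of 1.05 ± 0.16 (adjusted p = 4.21e-05, edgeR). Without the shallow library the 8 calls were kept, with values from -3.24 for Dusp1 to 1.05 for Dusp14. The ISO and SR-3420 interactions share both Vehicle groups.

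**Figure D3:**
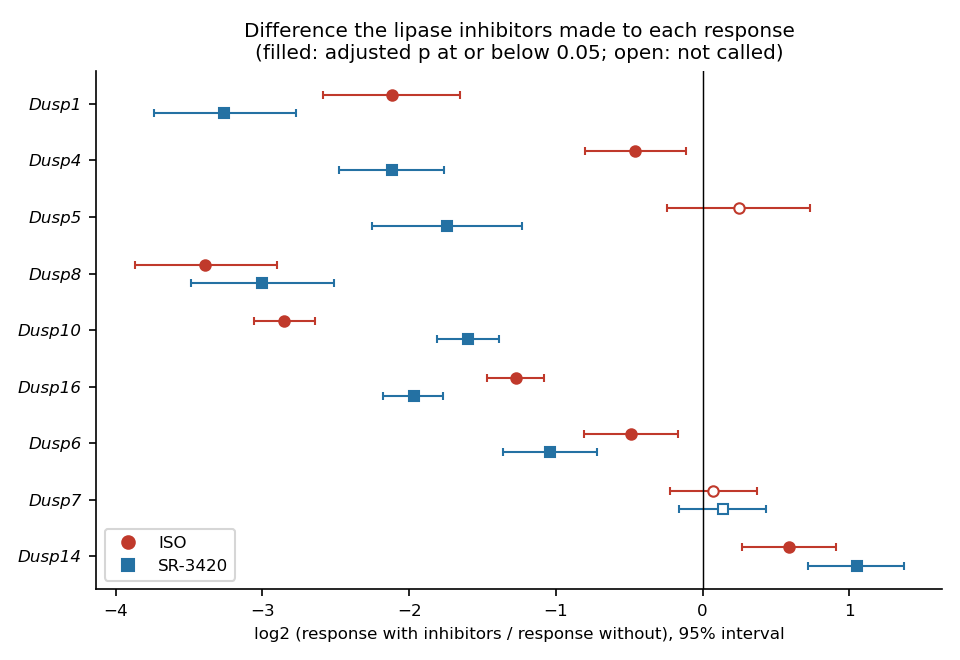
Interaction of each response with the lipase inhibitors (log2 of the response with inhibitors over that without, with 95% intervals), for ISO (circles) and SR-3420 (squares), filled where the adjusted p was at or below 0.05. Dusp4 and Dusp5 lie near 0 for ISO (-0.46 and 0.25) and far below 0 for SR-3420 (-2.12 and -1.74), while Dusp10 lies further below 0 for ISO (-2.85) than for SR-3420 (-1.60).

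With lipases blocked, both stimuli could be set against each other directly. In Lipase Inh. + ISO against Lipase Inh. + SR-3420 3 members were higher (Dusp4, Dusp5 and Dusp16) and 2 lower (Dusp7 and Dusp10), against 28.6% and 28.3% of all genes. The log2 differences were 1.54 ± 0.12 for Dusp4 (adjusted p = 6.73e-10), 1.81 ± 0.16 for Dusp5 (adjusted p = 4.70e-09) and 0.82 ± 0.07 for Dusp16 (adjusted p = 1.35e-09, all edgeR). Dusp10 was lower after ISO by -1.15 ± 0.07 (adjusted p = 1.99e-11, edgeR), with 39.3 to 43.8 CPM against 83.6 to 97.5 CPM. Dusp7 was lower by -0.32 ± 0.10 (adjusted p = 0.0111, edgeR), a call lost without Lipase Inh. + ISO replicate 3 (-0.27, adjusted p = 0.057) and after thinning to the smallest total (-0.27, adjusted p = 0.108). Dusp1 (0.37 ± 0.17, adjusted p = 0.0657) and Dusp8 (-0.41 ± 0.18, adjusted p = 0.0585, both edgeR) were near the threshold. Dusp1 was called without ISO replicate 2 or 3 or Lipase Inh. + Vehicle replicate 2 (0.37 each, adjusted p from 0.0129 to 0.0498), with no filter on low counts (0.39, adjusted p = 0.0103), with DESeq2 (0.37, adjusted p = 0.0437), in a fit of only the groups compared (0.36, adjusted p = 0.0019) and after thinning (0.47, adjusted p = 0.0475). Dusp8 was called without Lipase Inh. + Vehicle replicate 2 or 3 (-0.41 each, adjusted p 0.038 and 0.0396). Dusp8 was also called with total counts alone (-0.55, adjusted p = 0.011), with DESeq2 (-0.41, adjusted p = 0.0486) and in a fit of only the groups compared (-0.42, adjusted p = 0.0495). Dusp14 (-0.16, adjusted p = 0.225, edgeR) was called with total counts alone (-0.30, adjusted p = 0.0476). Without the shallow library the 5 calls were kept, at 1.57 for Dusp4, 1.72 for Dusp5, 0.86 for Dusp16, -1.12 for Dusp10 and -0.32 for Dusp7 (adjusted p from 2.65e-10 to 0.0242, edgeR). Dusp1 and Dusp8 were then at 0.36 and -0.40, not called (adjusted p = 0.111 and 0.0908, edgeR).

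Other genes of the pathway were read from lists of the kinases, other phosphatases, feedback inhibitors and target genes. Of 12 tested other dual-specificity and MAP kinase phosphatases, 3 rose and 4 fell with ISO and 4 rose and 4 fell with SR-3420, none by 2-fold, with medians of -0.06 and 0.15 on the log2 scale. Dusp28 (-0.65 ± 0.12) and Dusp22 (-0.33 ± 0.07), both atypical, had the smallest adjusted p-values with ISO (0.000135 and 0.00037, edgeR). Dusp3, a small phosphatase of ERK and JNK, had -1.02 ± 0.10 in Lipase Inh. + ISO against Lipase Inh. + Vehicle (adjusted p = 3.02e-08, edgeR). Dusp9, the remaining cytoplasmic MAP kinase phosphatase, named here after its values were seen, rose by 0.73 ± 0.19 with ISO, and SR-3420 raised it by 0.75 ± 0.19 (adjusted p = 0.00301 and 0.00229, edgeR).

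The kinases themselves changed in both directions. Over all genes 26.8% were higher and 25.0% lower with ISO, and 26.0% and 25.4% with SR-3420. With ISO and inhibitors these shares were 29.4% and 28.3%. With ISO 4 of 12 ERK cascade genes rose and 2 fell, with SR-3420 1 rose and 4 fell, and with ISO and inhibitors 6 rose and 4 fell. The rises with ISO were led by Braf (0.84 ± 0.08, adjusted p = 5.9e-09, edgeR) and the scaffold Ksr1 (0.81 ± 0.08, adjusted p = 1.05e-08, edgeR). With inhibitors Ksr1 rose by 2.13 ± 0.08 in response to ISO, an interaction of 1.32 ± 0.11 (adjusted p = 3.3e-09, edgeR). With SR-3420 Ksr1 was lower by -0.32 (adjusted p = 0.00181, edgeR). Of 9 p38 cascade genes 3 rose and 2 fell with ISO, 2 rose and 2 fell with SR-3420, and 1 rose and 6 fell with ISO and inhibitors. Mapkapk2, the kinase directly below p38, rose by 2.01 ± 0.09 without inhibitors and 2.22 ± 0.09 with them (adjusted p = 4.21e-14 and 5.68e-15, edgeR), and Mapk14, p38α itself, was lower by -0.40 ± 0.06 with ISO (adjusted p = 5.38e-06, edgeR). Of 10 JNK cascade genes 3 rose and 2 fell with ISO and 5 rose and 2 fell with SR-3420, none of them by 2-fold, while 4 rose and 1 fell with ISO and inhibitors. None of these 3 lists had a called gene after SR-3420 in the presence of inhibitors, where 2.99% of all genes were higher and 1.36% lower.

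Feedback inhibitors and targets rose together with the phosphatases. Of 7 tested inhibitors that brake signalling from receptors to ERK (Sprouty and Spred genes and Errfi1), 4 rose with ISO and 6 with SR-3420, and 0 fell, with a median of 1.03 for both. Spry4 rose by 3.30 ± 0.12 with ISO (adjusted p = 3.48e-15, edgeR) and had an interaction of -2.81 ± 0.17 (adjusted p = 6.81e-11, edgeR). Spred2 rose by 2.26 ± 0.10 in response to ISO alone and by 2.37 ± 0.10 when the lipases were blocked (adjusted p = 8.72e-14 and 1.77e-14, edgeR). Of 16 immediate early targets of MAP kinases 14 rose with ISO and 14 with SR-3420. Their medians were 1.29 for ISO and 2.05 for SR-3420 on the log2 scale. Compared with SR-3420, ISO left 9 of the 16 lower, among them Ier2 (-1.56 ± 0.07, adjusted p = 8.61e-13, edgeR), and 3 higher. Over all genes 13.9% were lower and 15.8% higher in that comparison. With inhibitors 7 rose and 3 fell with ISO (median 0.21).

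Targets of CREB, the factor that cAMP activates, and of ATF4 and CHOP, factors of the integrated stress response, were listed for comparison. Of 10 CREB targets 10 rose with ISO and 6 with SR-3420 (medians 2.96 and 0.64), and 9 rose with ISO and inhibitors (median 2.26). Of 10 ATF4 and CHOP targets 8 rose with ISO and 10 with SR-3420 (medians 0.96 and 1.67), and with ISO and inhibitors 1 rose and 6 fell (median -0.63). All of these shares can be set against the background of 26.8% higher and 25.0% lower with ISO. The background was 26.0% and 25.4% with SR-3420, and 29.4% and 28.3% with ISO and inhibitors. The medians of all genes lay between -0.02 and 0.

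**Figure D4:**
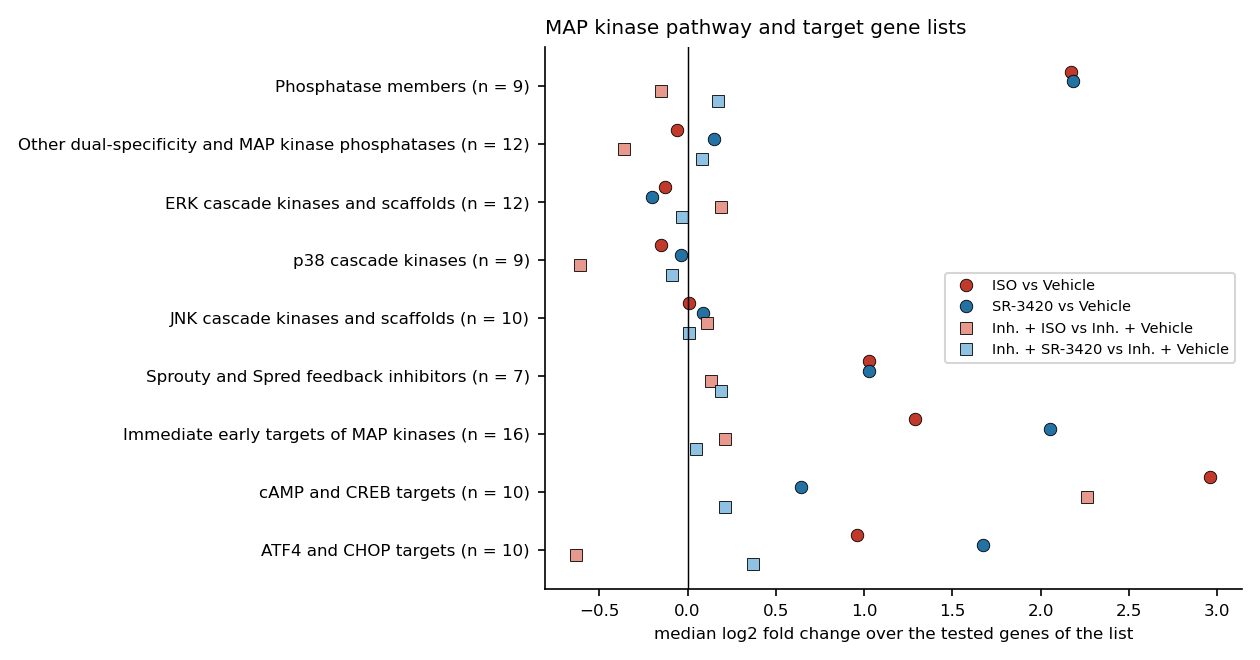
Median log2 fold change over the tested genes of each list (n in brackets) for ISO and SR-3420 without inhibitors (circles) and with inhibitors (squares). The median of the phosphatase members is 2.17 and 2.18 without inhibitors and -0.15 and 0.17 with them, whereas that of the CREB targets stays at 2.26 with ISO and inhibitors.

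The genes whose log2 CPM followed each member most closely over the 18 samples differed between members. These are descriptions over 18 libraries that share their treatments, and the search covered 9353 genes whose average log2 CPM reached 3. Dusp1 was followed by Usp36, Btg2 and Atf3 (Pearson r from 0.983 to 0.987), and Dusp4 by Cdkn1a, Usp38 and Zfp146 (0.985 to 0.989). Dusp5 was followed by Chordc1, Bdp1 and Sbds (0.979 to 0.980). Dusp8 was followed by Spry4, Zbtb21 and Ccnd2 (0.981 to 0.983), Dusp10 by Ndel1 and Plin2 (0.989 and 0.979) and Dusp16 by Sec24b and Eif2s2 (0.979 and 0.978). Plin2 codes for a lipid droplet coat protein. For the members that were not induced by ISO the values were lower. Dusp6 was followed by Ier2, Armcx2 and Egr2 (0.926 to 0.941), Dusp7 by Pcgf2, Gtf2ird2 and Ikbip (0.895 to 0.910) and Dusp14 by Ybey, Fam102b and Fam134a (0.955 to 0.959). Between members, r was 0.96 for Dusp8 with Dusp10, for Dusp1 with Dusp8 and for Dusp4 with Dusp16. It was 0.95 for Dusp4 with Dusp5, 0.75 for Dusp10 with Dusp16 and 0.48 for Dusp5 with Dusp10. High values thus also joined enzymes of different kinds.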

How the data were processed

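RNA-seq of 18 samples was analysed, grouped by sample titles. The authors prepared TruSeq libraries, aligned reads with STAR 2.4.2a to mm9, processed the alignments with HOMER, and used iRNA-seq to count reads over RefSeq genes. Values as deposited are raw whole-number counts of 20295 genes, and 0 columns came from other samples. Use of strand is not stated, but no gene of another name in the table or in GENCODE vM1 (same build) overlaps a member. Starts were taken to count from 0, since of 18992 genes matched by symbol 10959 had a GENCODE transcript start equal to the deposited start plus 1 and 703 one equal to it. Counts were tested in R 4.3.3 with edgeR 4.0.16 (filterByExpr with minimum count 10 and total 15, TMM, estimateDisp, glmQLFit and glmQLFTest) in a single model of 6 group means over all 18 samples. Benjamini-Hochberg adjustment covered 12156 genes, calls needed an adjusted p of at most 0.05, and counts of changes of at least 2-fold are given beside them. The SE was the log2 fold change over the root of its F statistic. Members and lists were chosen with earlier results of these data known, so no p was computed over a list. Named genes are all members, at most the 2 of a list with the smallest adjusted p in a comparison, and the 3 closest followers of each member by Pearson r of log2 CPM (prior count 2), of which 2 are not reported here. The study speaks of independent experiments, but the labels name no separate cultures, so p-values measure the spread between these samples, which may be technical in part. The floor of 3 counts covers counting error only. On simulated counts with 200 genes changed 3-fold between ISO and Vehicle, edgeR recovered 193 of 200 and called 10 others of 12038. No other gene was changed there, so it does not show the recovery of smaller changes or the scaling when many genes move. Alternatives included DESeq2 1.42.0, other scalings and filters, thinning, a replicate block and leaving out each library. Figures were drawn with matplotlib 3.10.9.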

Additional observations from a re-analysis of the deposited data

Results flagged for a closer look

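Responses of members that differed between cells with and without lipase inhibitors, by the interaction term of edgeR's quasi-likelihood test (adjusted p at most 0.05), are collected here as log2 values of the response with inhibitors minus that without. For ISO they were -3.39 for Dusp8, -2.85 for Dusp10, -2.12 for Dusp1, -1.27 for Dusp16, -0.49 for Dusp6, -0.46 for Dusp4 and 0.59 for Dusp14. For SR-3420 they were -3.26 for Dusp1, -3.00 for Dusp8, -2.12 for Dusp4, -1.97 for Dusp16, -1.74 for Dusp5, -1.60 for Dusp10, -1.04 for Dusp6 and 1.05 for Dusp14. Of these, the ISO values of Dusp4 and Dusp6 lost their call in 10 and 2 of the 18 fits that left out a library.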

How the results depend on the processing

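Over 9 comparisons and 9 members, the direction of a called change was reversed under 0 of the alternatives. The number of members called stayed within 1.5 times its main value except in 2 comparisons. In Lipase Inh. + SR-3420 against Lipase Inh. + Vehicle it was 1 and became 2 (Dusp5 added) with no filter on low counts, with DESeq2 and with the replicate number as a block, and 1 to 2 with single libraries left out. For the ISO interaction it was 7 and became 4 with all libraries thinned to 4263755 counts, which leaves fewer counts, and 5 to 7 with single libraries left out. Of the 81 single values, 77 kept their side of the threshold with DESeq2, 81 with RLE factors, 75 with total counts alone, 78 with no filter, 81 with a filter of 1 CPM in 3 samples, 79 with only the groups compared and 74 after thinning, as did 1427 of 1458 with single libraries left out. Same-numbered samples did not all pair by the check used, the correlation of deviations from the group means. For number 1 the lowest value was -0.114, and 1 of 15 pairs exceeded 0.1. For numbers 2 and 3 it was 12 of 15 and 15 of 15 pairs (mean 0.15 and 0.19). In addition, 14 of 18 samples correlated best with their own number, a hint from the data and not the design. The main fit did not use the number. With the replicate block 77 of the 81 kept their side and 4 became called: Dusp5 in Lipase Inh. + SR-3420 against Lipase Inh. + Vehicle (0.65), Dusp7 in ISO against SR-3420 (-0.26), and Dusp1 and Dusp8 in Lipase Inh. + ISO against Lipase Inh. + SR-3420 (0.34 and -0.44). Causes of these changes were not tested. Changes of Dusp2, at 0 to 4 counts, were below what this depth can show.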
